A study of Rattus norvegicus with 12 samples.

Results

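*Ltk* and *Alk* encode the leukocyte and the anaplastic lymphoma receptor tyrosine kinase, and their transcripts were counted in striatal RNA sequencing libraries of 12 rats. The members were the 2 rows of the count table, among 17337 gene symbols, that carry these names, and both were present. *Ltk* was chosen by its fold changes, which earlier results of these data placed among the largest rises in MA24 and in the non-addicted rats over MA12. Its levels and fold changes are therefore a description and carry no test. *Alk* was added as the closest relative of *Ltk* and not for its values, so it was tested.

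All animals were male Sprague–Dawley rats with a wild-type genotype label, and the titles of all 12 state 16 days of methamphetamine (MA) self-administration. The MA12 rats (n = 4) were taken after 12 h of abstinence and the MA24 rats (n = 4) after 24 h. Another 4 rats were labelled non-addicted after the same 16 days. The labels give no abstinence time for these 4 rats, and the methods do not say how they were told apart from the others. Each library held the poly-A RNA of 1 rat. No group labelled as saline-treated was analysed here. The paper describes a saline self-administration group and no non-addicted group. Whether the 4 non-addicted rats belong to that saline group cannot be told from the labels. No comparison with animals known to be free of MA was therefore made. An N follows the number of every MA24 rat and of 2 MA12 rats (4N and 7N) but of no non-addicted rat, and what it stands for is not given.

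ALK and LTK are single-pass receptors of the insulin receptor superfamily. Both are activated by the small secreted ligands ALKAL1 and ALKAL2, and the active receptors recruit adaptor proteins that feed the RAS-ERK, PI3K-AKT and JAK-STAT pathways. ALK is best known from the developing nervous system and from tumours in which it is mutated or fused to other proteins, and LTK is found in neurons and blood cells.

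The 250 bases upstream of each gene's annotated start are shown. Whether the counted transcripts begin at that start was not tested, so a window may not hold the promoter in use. Both windows are from RefSeq on build GRCr8, whereas the counts were made on rn6, so they show the sequence and not a position in the counted annotation. The *Ltk* window lies at chr3:127195357-127195606 on the minus strand and the *Alk* window at chr6:28631227-28631476 on the plus strand. They are written 5′ to 3′ in the direction of the gene, and capitals mark the GC box GGGCGG on either strand.
Ltk: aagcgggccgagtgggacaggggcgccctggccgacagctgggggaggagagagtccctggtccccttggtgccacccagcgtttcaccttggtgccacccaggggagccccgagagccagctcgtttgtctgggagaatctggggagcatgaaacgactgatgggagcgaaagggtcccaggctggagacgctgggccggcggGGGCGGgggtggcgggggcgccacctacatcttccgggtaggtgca
Alk: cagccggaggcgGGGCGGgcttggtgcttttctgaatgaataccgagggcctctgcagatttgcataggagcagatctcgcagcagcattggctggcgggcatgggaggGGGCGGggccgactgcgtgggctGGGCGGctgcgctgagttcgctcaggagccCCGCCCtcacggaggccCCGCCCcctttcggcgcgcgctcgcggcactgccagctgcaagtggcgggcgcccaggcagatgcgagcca

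The *Ltk* window held 1 GC box and the *Alk* window 5. Of the 33469 windows of this length before annotated rat gene starts, 30.5% held at least 1. Both windows were rich in G and C, with 68.8% for *Ltk*, above 90.2% of all windows, and 70.4% for *Alk*, above 92.3%. The median of all windows was 51.2%. The E-box CACGTG, at which the CLOCK and BMAL1 factors bind, was in neither window (5.59% of all windows held it). The same held for the cAMP response element TGACGTCA (1.59%), the D-box TTATGTAA (0.828%) and the TATA box TATAAA (12.9%). All were searched on both strands, and a match or its absence concerns these letters in these windows only.

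Between 17908962 and 23850284 reads per rat were counted on genes (median 20192470.5), and 3 counts in a library corresponded to 0.126 to 0.168 CPM (counts scaled to a library of fixed size). The libraries of a group differed by more than counting noise (the chi-square divided by its degrees of freedom was 8.94 to 25.5 within groups). All 9 markers of striatal projection neurons were detected in every rat, with *Ppp1r1b* at 138409 to 203294 counts, whereas the cortical markers *Neurod6*, *Tbr1*, *Slc17a7* and *Fezf2* were at 0 to 7, 1 to 18, 46 to 181 and 89 to 182 counts. On the first principal component (26.8% of the variance of 10765 genes), the MA12 rats lay between -19.2 and -2.92, the non-addicted rats between -10.3 and 6.69, and the MA24 rats between 5.31 and 27.5. All labels carry 1 batch date, so no batch could be separated. In bulk tissue, fewer cells of a type and less RNA per cell cannot be told apart.

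*Ltk* transcripts were lowest in the MA12 rats. The 4 MA12 rats (21, 31, 4N and 7N) had 457, 386, 339 and 404 counts, or 4.27, 4.02, 4.00 and 4.52 on the log2 CPM scale (prior count of 2). The MA24 rats (9N, 14N, 15N and 16N) had 574, 858, 606 and 1015 counts, or 4.63, 5.41, 4.96 and 5.75. The non-addicted rats (9, 11, 12 and 13) had 486, 748, 909 and 514 counts, or 4.67, 5.21, 5.22 and 4.75. Every MA12 rat lay below every rat of the other groups, although the highest MA12 rat (7N) and the lowest MA24 rat (9N) were close.

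**Figure D1:**
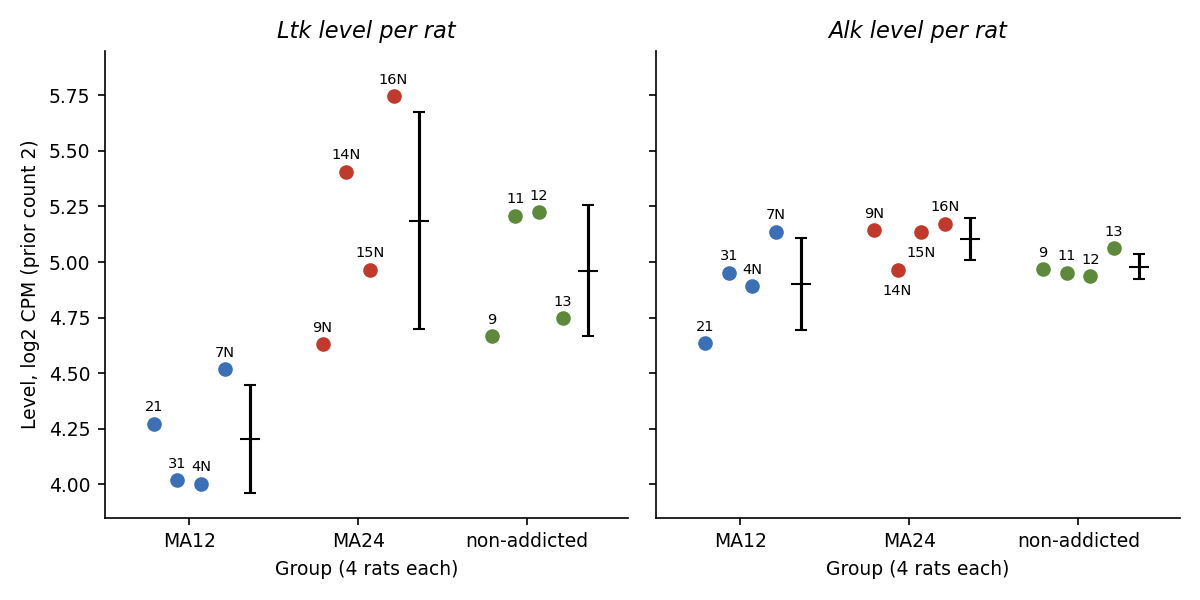
*Ltk* (left) and *Alk* (right) levels in log2 CPM for each of the 12 rats, labelled by rat number, with the mean and SD of each group of 4 as a bar beside the points. The *Ltk* values of MA12 (4.00 to 4.52) lie below those of the other groups, whereas the *Alk* values of the 3 groups overlap; heights are not comparable between the panels, since transcript length was not divided out.

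The mean *Ltk* level was 4.20 ± 0.24 in MA12, 5.19 ± 0.49 in MA24 and 4.96 ± 0.30 in the non-addicted rats (log2 CPM, SD, n = 4 each). In edgeR's fit, the log2 fold change of MA24 over MA12 was 1.03 (SE 0.18, 95% interval 0.65 to 1.42), which corresponds to a 2.05-fold difference. Of the 10754 genes tested in this comparison, 0.735% were called higher in MA24 (a fold change, FC, of at least 1.5 with an adjusted p below 0.05) and 7.16% had an MA24 group wholly above the MA12 group. *Ltk* was chosen with this contrast in view, so nothing is read from its place among them.

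The non-addicted rats exceeded the MA12 rats in *Ltk* by a log2 fold change of 0.77 (SE 0.15, interval 0.46 to 1.08), or 1.70-fold. Here 0.102% of 10758 genes were called higher and 3.50% lay wholly above MA12, and this contrast also entered the choice of *Ltk*. The MA12 rats are the same animals in both comparisons, so the rises share their baseline. Between the non-addicted and the MA24 rats the *Ltk* values overlapped, with a log2 fold change of -0.27 (SE 0.19, interval -0.66 to 0.12). Leaving out rat 16N, the highest of all, brought this difference to -0.05, and leaving out 9N brought it to -0.42. The order of the group levels was thus MA12, non-addicted and MA24, and the last 2 did not differ beyond their spread.

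Within MA24, *Ltk* was high in 14N and 16N and lower in 9N and 15N. Within the non-addicted rats, 11 and 12 had almost the same level, and 9 and 13 were lower. Leaving out single rats moved the log2 fold change of MA24 over MA12 between 0.82 (without 16N) and 1.19 (without 9N). Among the rats with an N in their number it was 0.98, and with the kind of number as a covariate it was 0.96. The non-addicted difference from MA12 ranged from 0.67 to 0.90 when single rats were left out, and it was 0.85 among the rats without an N.

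*Alk* varied little. The MA12 rats (21, 31, 4N and 7N) had 588, 738, 629 and 621 counts, or 4.63, 4.95, 4.89 and 5.14 log2 CPM. The MA24 rats had 819, 631, 683 and 682 counts (9N, 14N, 15N and 16N), or 5.14, 4.96, 5.14 and 5.17. In the non-addicted rats (9, 11, 12 and 13), 599, 626, 744 and 640 counts were found, or 4.97, 4.95, 4.94 and 5.06. Rat 21 of MA12 was the lowest of all and the others lay between 4.89 and 5.17, so the groups overlapped in every comparison.

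The mean *Alk* level was 4.90 ± 0.21 in MA12, 5.10 ± 0.09 in MA24 and 4.98 ± 0.06 in the non-addicted rats (log2 CPM, SD, n = 4 each). The log2 fold change of MA24 over MA12 was 0.19 (SE 0.12, interval -0.05 to 0.44, adjusted p = 0.316 in edgeR's quasi-likelihood test), and the exact permutation test over the 70 splits gave a two-sided p of 0.0571 (0.129 adjusted over the 3 comparisons of *Alk*). The smallest p that 4 rats against 4 allow is 0.0286. For the non-addicted rats over MA12 it was 0.06 (SE 0.11, interval -0.17 to 0.30, edgeR adjusted p = 0.875, exact permutation p = 0.571). For the non-addicted rats over MA24 the variance filter removed *Alk*, and the fit without that filter gave -0.13 (SE 0.09, interval -0.31 to 0.06, edgeR adjusted p = 0.464, exact permutation p = 0.0857). None of these differences passed the test, and a p above the threshold does not show that the groups were alike. The first interval ends at 0.44, below the limit of 0.585 that an FC of 1.5 sets on the log2 scale.

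The ratio of the 2 genes' counts within a library does not depend on its depth. The MA12 rats (21, 31, 4N and 7N) had 0.777, 0.523, 0.539 and 0.651 *Ltk* reads per *Alk* read. The MA24 rats (9N, 14N, 15N and 16N) had 0.701, 1.36, 0.887 and 1.49, and the non-addicted rats (9, 11, 12 and 13) had 0.811, 1.19, 1.22 and 0.803. The ratio was below 1 in every MA12 rat and above 1 in 14N, 16N, 11 and 12, with group means of 0.622 ± 0.118, 1.11 ± 0.375 and 1.01 ± 0.232 (SD, n = 4). Rat 21 (0.777) exceeded 9N (0.701), so the MA12 and MA24 ranges of this ratio overlapped, unlike those of *Ltk* itself. The ratio holds the *Ltk* values that entered its choice, so it is a description as well.

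The ligands of both receptors were hardly detected. *Alkal1*, listed under its older symbol *Fam150a*, had 0 counts in all 12 rats, which allows up to 0.126 to 0.168 CPM per library (3 counts, counting error only). *Alkal2*, listed as *Fam150b*, had 0, 1, 3 and 0 counts in MA12, 0, 5, 1 and 0 in MA24, and the non-addicted rats had 2, 0, 1 and 0. No difference in either ligand was detectable with so few reads.

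Of the proteins reported to bind or act on ALK, *Ptn* encodes the growth factor pleiotrophin, *Mdk* its relative midkine, and *Ptprz1* a receptor phosphatase that binds both. *Ptn* was at 8.14, 8.21, 8.22 and 8.16 log2 CPM in MA12 and at 8.34, 8.56, 8.49 and 8.31 in MA24, so each MA24 rat exceeded each MA12 rat. The log2 fold change was 0.25 (SE 0.09, edgeR adjusted p = 0.119) and did not pass the test. In this comparison 15.6% of all genes had groups that did not overlap. *Ptn* in the non-addicted rats (8.06 to 8.40) overlapped both groups, with 0.03 over MA12 (adjusted p = 0.945) and -0.22 against MA24 (adjusted p = 0.263).

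*Mdk* gave a log2 fold change of 0.14 for MA24 over MA12 (adjusted p = 0.526) and -0.14 for the non-addicted rats against MA24 (adjusted p = 0.470), and its non-addicted and MA12 means lay at 5.67 and 5.65 log2 CPM. *Ptprz1* gave -0.23 for MA24 over MA12 (adjusted p = 0.165), -0.09 for the non-addicted rats over MA12 (adjusted p = 0.765) and 0.14 for them over MA24 (adjusted p = 0.495). Neither passed edgeR's test in any comparison.

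**Figure D2:**
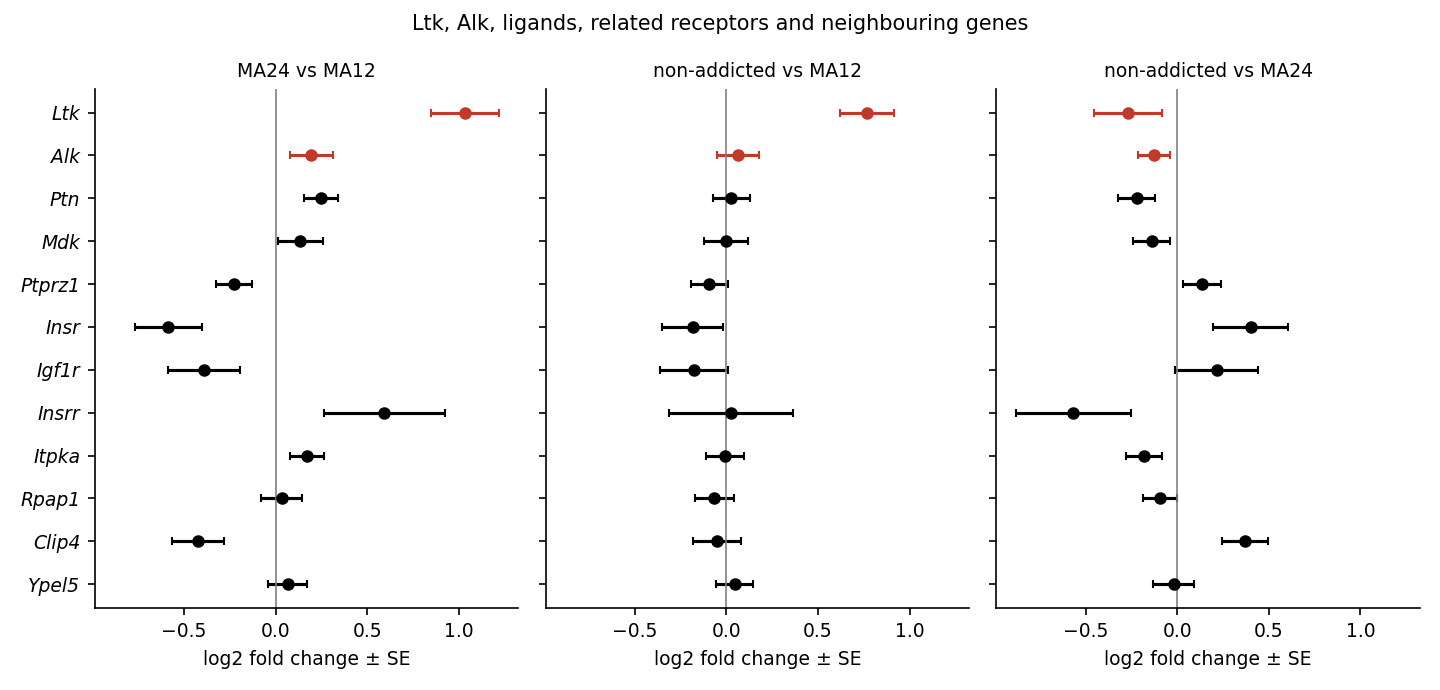
Log2 fold change with its SE (horizontal bar) for *Ltk* and *Alk* (red) and for the ligand-related genes, related receptors and neighbouring genes (black) in the 3 comparisons, each from 4 rats against 4 (first group minus second). *Ltk* lies at 1.03 and 0.77 against MA12, and *Alk* lies at 0.19 and 0.06.

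The other kinases of the insulin receptor superfamily did not pass the test in any comparison with all rats in the fit. *Insr*, the insulin receptor, was at 4.49 ± 0.25 in MA12, 3.87 ± 0.47 in MA24 and 4.29 ± 0.41 in the non-addicted rats (log2 CPM, SD, n = 4), with a log2 fold change of -0.58 for MA24 over MA12 (SE 0.18, edgeR adjusted p = 0.0656). *Igf1r*, the receptor of insulin-like growth factor, gave -0.39 (adjusted p = 0.232). *Insrr*, an alkali-sensing relative of the insulin receptor, gave 0.59 (adjusted p = 0.279) at only 26 to 74 counts per rat. The values against MA12 in the non-addicted rats were -0.18 (adjusted p = 0.709), -0.18 (adjusted p = 0.758) and 0.03 (adjusted p = 0.984) for the same genes in this order. Against MA24, the non-addicted rats gave 0.40 (adjusted p = 0.312), 0.21 (adjusted p = 0.635) and -0.57 (adjusted p = 0.346). *Insr* was called lower in MA24 without rat 7N (-0.67, adjusted p = 0.0343) or without 9N (-0.70, adjusted p = 0.0307), and *Igf1r* without 9N (-0.63, adjusted p = 0.0435). The receptor kinase gene *Ros1* had 0 to 12 counts and was too low to test.

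In RefSeq's order of genes on GRCr8, *Ltk* lies between *Itpka*, which encodes inositol-trisphosphate 3-kinase A, and *Rpap1*, a factor tied to RNA polymerase II, and no annotated gene overlaps it. *Itpka* was at 8.07, 8.12, 8.26 and 8.26 log2 CPM in the MA12 rats and at 8.32, 8.31, 8.31 and 8.47 in the MA24 rats, where 16N stood apart. Its log2 fold change of 0.17 (SE 0.09, edgeR adjusted p = 0.270) did not pass the test. The *Itpka* levels of MA12 and MA24 did not overlap, which held for 15.6% of all genes tested in this comparison. The non-addicted rats gave -0.01 over MA12 (adjusted p = 0.984) and -0.18 against MA24 (adjusted p = 0.329). *Ltk* counts equalled 5.20% to 7.41% of the *Itpka* counts in MA12, 7.71% to 15.1% in MA24 and 8.37% to 14.4% in the non-addicted rats. The MA12 range lay below the others, but this share repeats the *Ltk* values that entered its choice. It is a description and no further evidence of a group difference. *Rpap1* gave 0.03 for MA24 over MA12 (adjusted p = 0.882) and -0.07 for the non-addicted rats over MA12 (adjusted p = 0.859).

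*Alk* is overlapped by 4 annotated genes on GRCr8, none of them in the count table. Because how strands were counted is not given, reads from such genes could not be told apart from those of *Alk*. The nearest genes of the table on either side are *Ypel5* and *Clip4*, the latter of which encodes a microtubule-associated linker protein. *Clip4* was at 4.23 to 4.75 log2 CPM in MA12 and 3.78 to 4.19 in MA24. With a log2 fold change of -0.42 (edgeR adjusted p = 0.0847), it had groups that did not overlap, as did 15.6% of all genes tested. It gave -0.05 for the non-addicted rats over MA12 (adjusted p = 0.915) and 0.37 over MA24 (adjusted p = 0.161), where 5.10% of all genes lay wholly above MA24, as *Clip4* did. *Ypel5* gave 0.07 (adjusted p = 0.741), 0.05 (adjusted p = 0.902) and -0.02 (adjusted p = 0.943) in the 3 comparisons.

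In all, 60 genes of the ligand, receptor, adaptor, RAS-ERK, PI3K-AKT and JAK-STAT lists were examined, so not all of them act downstream of the receptors. Of these 60, 57 were in the table and 56 had a count. For MA24 over MA12, 48 passed the filters, 33 of them with a log2 fold change below 0. Their median was -0.19, beside -0.02 over all genes tested. In edgeR's test, 1 gene was called lower (*Gsk3b*) and 0 higher, where 2.45% of all genes were called, 1.72% as lower and 0.735% as higher. At an unadjusted p below 0.05, 25 of the 48 passed (52.1%), beside 23.6% of all genes. Without rat 14N the median was -0.16, with 31 of 46 below 0, but only 14 of the 46 passed at an unadjusted p below 0.05 and 0 were called. The list describes these genes only, and no test was made over it.

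*Gsk3b* encodes glycogen synthase kinase 3 beta, which AKT phosphorylates and holds inactive. Its levels were 5.90, 6.12, 6.03 and 5.97 log2 CPM in the MA12 rats (21, 31, 4N and 7N) and 5.75, 4.74, 5.56 and 5.27 in the MA24 rats (9N, 14N, 15N and 16N). The groups did not overlap, as in 15.6% of all genes tested in this comparison, and 14N was the lowest. The transcript fell by 0.63 on the log2 scale (SE 0.15, edgeR adjusted p = 0.0236). It was not called without 14N (-0.47, adjusted p = 0.0359, below the FC limit), without 16N (adjusted p = 0.0625), among the rats with an N (adjusted p = 0.0641) or with the kind of number as a covariate (adjusted p = 0.125). The non-addicted rats lay between, at 5.64 ± 0.22, with -0.36 over MA12 (adjusted p = 0.153) and 0.27 over MA24 (adjusted p = 0.387).

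*Sos1* and *Crk* reached an adjusted p below 0.05 in edgeR's test without an FC of 1.5, both with lower levels in MA24. *Sos1*, the exchange factor that loads RAS with GTP, gave -0.35 (adjusted p = 0.0396), and *Crk*, an adaptor, gave -0.44 (adjusted p = 0.0269). They were named after their values were seen.

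Among the 17 adaptors tested in this comparison, 12 lay below 0 with a median of -0.19. The largest differences were those of *Irs1*, an insulin receptor substrate (-0.62, adjusted p = 0.114), and the neuronal adaptor *Shc3* (-0.55, adjusted p = 0.153). The 8 genes of the RAS-ERK cascade were split evenly, with 4 below 0 and a median of 0.02, and included *Mapk3*, which encodes ERK1 (0.23, adjusted p = 0.172). Of 17 PI3K-AKT and JAK-STAT genes 14 lay below 0, with a median of -0.29, and the transcription factor gene *Foxo3* gave -0.62 (adjusted p = 0.0606). None of these genes passed edgeR's test. Rat 14N stood farthest out on the first principal component (27.5) and had the lowest level of all 12 rats in *Insr*, *Igf1r*, *Irs1*, *Shc3* and *Gsk3b*, a set listed after its values were seen. The part of this library or of that component in the result was not tested beyond leaving out 14N.

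**Figure D3:**
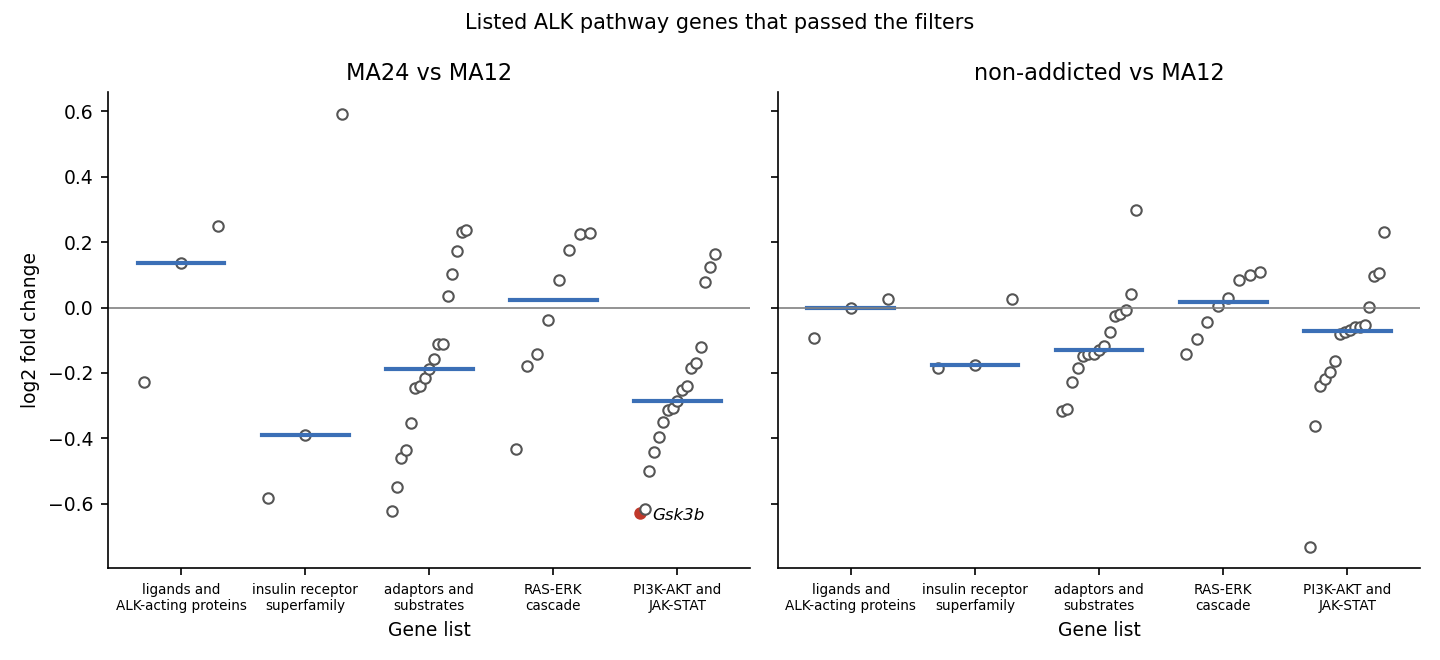
Log2 fold change of each listed gene that passed the filters, by list, for MA24 over MA12 (left) and non-addicted over MA12 (right), with the median of each list as a blue bar and called genes filled in red. *Gsk3b* at -0.63 is the only called gene, and the PI3K-AKT and JAK-STAT genes have a median of -0.29 on the left and -0.07 on the right.

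For the non-addicted rats over MA12, 45 of the listed genes passed the filters, 32 below 0 with a median of -0.07 (-0.01 over all genes), and 0 were called by edgeR, where 0.251% of all genes were. At an unadjusted p below 0.05, 5 of them passed (11.1%, beside 12.3% of all genes), and DESeq2 and the likelihood ratio test called 1 each, *Stat5a* (0.697% and 0.809% of all genes were called by these tools). *Stat5a*, a JAK-activated transcription factor, had 223, 239, 212 and 148 counts in MA12 and 112, 122, 142 and 98 in the non-addicted rats, with no overlap of the levels and a log2 fold change of -0.73 (edgeR adjusted p = 0.0735, DESeq2 adjusted p = 0.00817). In all, 7.10% of genes did not overlap in this comparison. The other genes with the largest values of their lists were *Shc3* (-0.32, adjusted p = 0.583), *Gab1* (-0.31, adjusted p = 0.307), *Nras* (-0.14, adjusted p = 0.610) and *Map2k5* (0.11, adjusted p = 0.721). Without rat 9, which was the lowest non-addicted rat in *Shc3*, 21 of 40 genes lay below 0 and the median was -0.01.

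Between the non-addicted and the MA24 rats, 44 of the listed genes passed the filters, 30 of them above 0 in the non-addicted rats with a median of 0.12 (0.00 over all genes), and 0 were called, where 0.456% of all genes were. DESeq2 and the likelihood ratio test called 0 as well, where they called 1.17% and 1.52% of all genes, and 11 passed at an unadjusted p below 0.05 (25%, beside 17.5% of all genes). Large values were those of the insulin receptor substrates *Irs2* (0.52, adjusted p = 0.130) and *Irs1* (0.50, adjusted p = 0.322), of the RAS gene *Hras* (-0.27, adjusted p = 0.159), and of *Pik3cb*, a catalytic subunit of PI3K (0.39, adjusted p = 0.171), and *Foxo3* (0.37, adjusted p = 0.347).

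The genes whose levels followed *Ltk* most closely across the 12 rats were sought among 10764 genes with a mean count of at least 50. Among the 5 genes of highest Pearson r were *Dgka*, a diacylglycerol kinase (0.943), *L3mbtl2*, a Polycomb-related protein (0.940), *Edc4*, a scaffold of mRNA decapping (0.929), and *Pkd1*, polycystin-1 (0.914). Spearman's rho for the 5 genes was 0.923 to 0.965. After each group's mean was removed, r was 0.768 to 0.833. The median absolute r over all genes was 0.339. The rats shared library preparation, and the groups differ in *Ltk*, so part of each r repeats the group difference. Only 2 of the 5 stayed among the first 5 by Spearman's rho and 0 by r within groups.

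*Dgka* was at 5.64, 5.56, 5.50 and 5.79 log2 CPM in the MA12 rats, at 5.85 to 6.23 in the MA24 rats, and at 5.88, 5.96, 6.07 and 5.83 in the non-addicted rats. As with *Ltk*, the MA12 rats lay below all others. The log2 fold changes of MA24 over MA12 for *Dgka*, *L3mbtl2*, *Edc4* and *Pkd1* were 0.42, 0.38, 0.23 and 0.29 in this order, each smaller than the 1.03 of *Ltk*. They were picked for their likeness to *Ltk*, so these values carry no test.

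*Per2*, a repressor of the circadian clock that was looked up with earlier results of these data known, had an r of 0.912 with *Ltk* (rho 0.895, r within groups 0.859). It was at 5.15, 4.73, 4.55 and 5.23 log2 CPM in MA12, at 5.41, 6.27, 5.27 and 6.34 in MA24, and at 5.47, 6.45, 5.91 and 5.93 in the non-addicted rats. Rats 14N and 16N were high in both genes. Between MA24 and MA12 the *Per2* difference was 0.96, and between the non-addicted and the MA12 rats it was 1.04, where *Ltk* had 1.03 and 0.77 (log2 fold changes). The abstinence times of MA12 and MA24 differ by 12 h, so time of day and length of abstinence cannot be told apart.

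**Figure D4:**
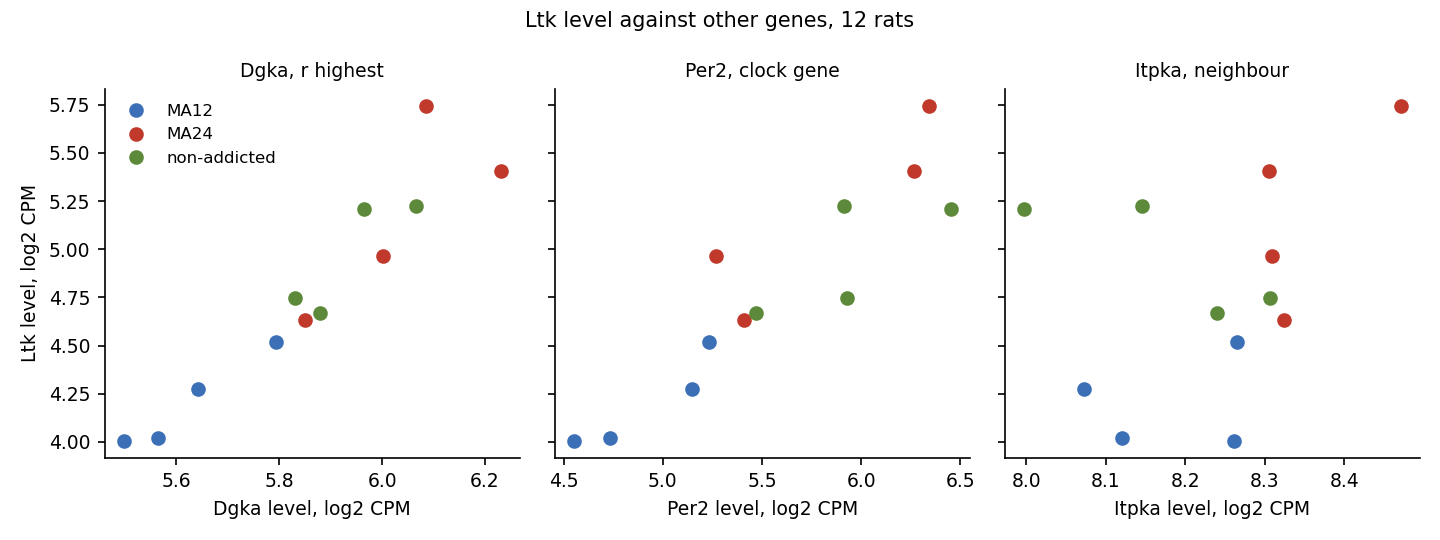
*Ltk* level (vertical axes) against the levels of *Dgka*, *Per2* and *Itpka* (horizontal axes), all in log2 CPM, with 1 point per rat coloured by group. *Ltk* and *Dgka* (r = 0.943) and *Ltk* and *Per2* (r = 0.912) rise together across the 12 rats, and *Itpka*, the neighbour of *Ltk*, scatters more widely (r = 0.346).

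*Ltk* and *Alk* themselves had an r of 0.414 (rho 0.420), which was -0.01 within groups. With *Itpka*, *Ltk* had an r of 0.346, with *Rpap1* 0.101, with the total count -0.281, and with the first principal component 0.659 (0.227 within groups). The genes most like *Alk* were *Prodh*, proline dehydrogenase (0.925), *Tkt*, transketolase (0.918), *Scarf2*, a scavenger receptor (0.906), *Hk1*, hexokinase 1 (0.897), and *Klhl36* (0.897), with a median absolute r of 0.304 over all genes. Of these 5, 4 stayed among the first 5 by r within groups and 2 by Spearman's rho. *Itpka* had an r of 0.695 with *Alk* (0.565 within groups). No gene was among the first 5 of both *Ltk* and *Alk*.

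Markers of neighbouring tissue were examined beside *Ltk*. The summed level of 5 cortical excitatory neuron markers, all with a count in some rat, was 6.96 to 10.4 CPM in MA12, 7.72 to 15.3 in MA24 and 8.89 to 11.8 in the non-addicted rats (r with *Ltk* 0.467). *Slc17a7*, the vesicular glutamate transporter of cortical neurons, had 55, 73, 63 and 49 counts in the MA12 rats, 86, 52, 136 and 181 in the MA24 rats, and 103, 57, 104 and 46 in the non-addicted rats. The log2 fold change of *Slc17a7* for MA24 over MA12 was 1.03 (SE 0.33, edgeR adjusted p = 0.0690), as large as that of *Ltk*, and did not pass the test. Rat 16N was highest in both genes, and 14N, the second in *Ltk*, had 52 *Slc17a7* counts. The non-addicted rats gave 0.42 over MA12 for *Slc17a7* (adjusted p = 0.588). Spearman's rho of *Slc17a7* with *Ltk* was 0.322, and r within groups was 0.166. The summed striatal markers ranged from 14540 to 17412 CPM in MA12, 16229 to 17420 in MA24 and 14004 to 16241 in the non-addicted rats (r with *Ltk* 0.178). The part of tissue composition in the *Ltk* difference was not tested.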

How the data were processed

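Striatal RNA of 12 rats was sequenced as paired-end poly-A libraries. The authors used Cutadapt 1.18 for trimming, STAR 2.7.0e for alignment to rn6 and featureCounts for counting per gene (HTSeq 0.12.4 is also listed, with no role), and they deposited raw counts without normalization. The treatment of strands and of reads with several positions is not given in the sources used here.

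Groups came from the sample titles. In each comparison of 8 libraries, a gene needed a mean count above 4, and the 15% of these genes least variable in log2 CPM were dropped. TMM factors and edgeR 4.0.16 (glmQLFit, glmQLFTest, R 4.3.3) were used, with p-values adjusted by Benjamini-Hochberg over all genes tested. Genes were called at an FC of 1.5 or more with an adjusted p under 0.05. Levels are log2 CPM (prior count 2, TMM over 12 libraries). Replicates are single rats. *Alk* was also compared by two-sided exact permutation tests (Python 3.11.15, scipy 1.17.1, numpy 2.4.6, pandas 2.3.3). The fits were tested on simulated data.

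The members and lists were chosen with earlier results of these data known. Named genes were *Ltk* and *Alk*, all ligand, insulin receptor superfamily and neighbouring genes, from the other lists every called gene and the 2 genes of the largest absolute log2 fold change per list and comparison, and the 5 genes of highest Pearson r with each member. *Per2*, *Slc17a7*, *Sos1* and *Crk* were added, and some genes that the rule names are not reported here. Of the marker lists, those of striatal and cortical neurons are reported beside *Ltk*, and its r with the summed thalamic, vascular, ependymal, glial and microglial markers ranged from -0.28 to 0.09. Groups differed in some lists, picked after their values were seen. All 8 vascular markers were lower in non-addicted rats than in MA12 (median log2 fold change -0.39, 1 called) and MA24 (-0.33, 2 called). Against MA24, all 5 ependymal and choroid plexus markers were higher (1.08, 1 called) and all 4 oligodendrocyte markers lower (-0.36, 0 called). Over all genes, 0.251% were called against MA12 and 0.456% against MA24. The alternatives comprised a fit of all 3 groups, edgeR's likelihood ratio test, DESeq2 1.42.0, RLE scaling, other filters, leaving out single rats, and rats split by the N in their number; the count of pathway genes below 0 under these settings was chosen after seeing the data. Protein sequences were not used here.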

Additional observations from a re-analysis of the deposited data

Results flagged for a closer look

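Of 105 groups of 4 rats examined over the named genes, 7 held a rat far from the others by Dixon's ratio (its gap to the nearest rat as a share of the group's range, on the log2 CPM scale, above the 95% critical value for 4 samples), where chance gives about 1 in 20, or 5.2. Neither *Ltk* nor *Alk* was among them. In MA24, *Itpka* was highest in rat 16N (ratio 0.890, 6725 counts beside 6174 to 7448 before scaling for depth), *Irs1* was lowest in 14N (0.909, 51 counts beside 84 to 109) and so was *Klhl36* (0.926, 300 counts beside 324 to 402). In the non-addicted rats, rat 9 was lowest in *Clip4* (0.900, 368 counts beside 429 to 540) and in *Shc3* (0.855, 244 counts beside 538 to 713). In MA12, *Nras* was lowest in 7N (0.948, 497 counts beside 674 to 754) and *Foxo3* was highest in 4N (0.888, 1366 counts beside 926 to 1240).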

How the results depend on the processing

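The *Ltk* and *Alk* values kept their direction in all alternatives run, with *Alk* adjusted p between 0.176 and 0.912 in every one. Of 1237 values over 79 other named results, 1187 kept direction and side of the threshold, 35 changed sign, 8 passed the threshold, 4 no longer did and 3 moved beyond the spread.

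Over all genes, the 264 called for MA24 over MA12 became 47 with the N in the rat number as a covariate and 116 among rats with an N, and ranged from 129 (without 14N) to 436 (without 9N) with 1 rat left out. The 27 called for non-addicted over MA12 became 75 with DESeq2, 87 with the likelihood ratio test, 12 unfiltered, 5 with no variance filter, 4 when every library needed 10 counts and 63 among rats without an N, and ranged from 8 (without rat 12) to 93 (without 7N). The 49 called for non-addicted over MA24 became 126 with DESeq2, 163 with the likelihood ratio test, 10 unfiltered, and 0 in the fit of all 3 groups, when every library needed 10 counts or with no variance filter (2066, 2146 and 2229 at an unadjusted p below 0.05), and ranged from 0 (without rat 12) to 187 (without 13). The causes were not tested.

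Pathway genes called in MA24 over MA12 (1) became 2 with the likelihood ratio test (*Gsk3b* and *Foxo3*) and 0 with the covariate or among rats with an N (16 and 12 at an unadjusted p below 0.05), and ranged from 0 (without 14N or 16N) to 5 (without 9N). For non-addicted over MA12, DESeq2 and the likelihood ratio test called 1 in place of 0. Against MA24 the range was 0 to 1 (*Irs2*, without 13). The count below 0 for non-addicted over MA12 (32) ranged from 21 (without 9) to 34. Genes shared with the 5 most like *Ltk* were 2 by Spearman's rho and 0 within groups, and with those most like *Alk* 2 by Spearman's rho.

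Sign changes concerned differences near 0. *Rpap1* in MA24 over MA12 was -0.0185 with the covariate, -0.00262 among rats with an N and -0.00620 to 0.10 with 1 rat left out. For non-addicted over MA12, *Mdk* was 0.00728 with DESeq2, 0.00714 with RLE factors, 0.00578 with all 3 groups, 0.0628 among rats without an N and -0.10 to 0.10 with 1 left out. *Itpka* was 9.88e-04 with DESeq2, 9.60e-04 with RLE factors, 0.10 among rats without an N and -0.0429 to 0.0426 with 1 left out. *Insrr* was -0.29 among rats without an N and -0.13 to 0.21 with 1 left out. *Clip4* was -0.12 to 0.0524, and *Klhl36* was 0.0783 among rats without an N and up to 0.0844 (without 7N), from -0.0131. For non-addicted over MA24, *Hk1* was 0.00783 without 16N, from -0.0178. *Ypel5* for non-addicted over MA24 was -0.10 to 0.0353.

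*Alk* could not be fitted under the variance filter without MA12 rat 21 in non-addicted over MA12. No paired analysis was possible because the groups compared do not share 2 rat numbers. Depth limits the ligands and *Ros1* (at most 12 counts). Replicates were single rats, and 4 per group leave wide intervals.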
